A study of Homo sapiens with 6 samples.

Results

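The MEF2, SIX4, EYA and PAX7 factors are transcription regulators of skeletal muscle that do not belong to the basic helix-loop-helix class. The 9 genes described here are MEF2A, MEF2B, MEF2C, MEF2D, SIX4, EYA1, EYA2, EYA4 and PAX7, found by matching their gene symbols to the Entrez gene numbers of a deposited table of 25702 genes. RNA was sequenced from 6 libraries of RMS13, an established human cell line from a rhabdomyosarcoma, a cancer whose cells resemble immature skeletal muscle. Of these, 3 libraries came from cells given a GLI1-directed small interfering RNA, or siRNA (siGLI1), and 3 from cells given a non-targeting siRNA (siNT2). All were taken 72 h after transfection from cells kept in the same serum-containing medium, and the labels describe no allele that differs between the groups. The model is 1 cell line and a transient knockdown rather than a deletion. The labels do not say whether replicates were separate cultures, so p-values reflect library-to-library spread alone, and that spread may be technical.

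MEF2 proteins are MADS-box factors that bind an A/T-rich site in muscle gene promoters and act together with the MyoD family. SIX4 and its relatives are homeodomain factors that bind the MEF3 site, and EYA proteins are their coactivators, which carry a phosphatase domain and do not bind DNA themselves. PAX7 is a paired-homeodomain factor best known from satellite cells, the stem cells of adult muscle, and in alveolar rhabdomyosarcoma PAX3 or PAX7 can be fused to FOXO1. GLI1, the gene targeted by the siRNA, encodes a zinc finger factor at the end of the Hedgehog pathway. The comparison addresses how these muscle regulators are expressed when GLI1 is lowered.

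In short, transcripts of EYA1, MEF2C and EYA4 were called higher in siGLI1 cells, by 1.18, 0.85 and 0.81 on the log2 scale. No member was called lower. Over all tested genes, 7.21% were called higher and 8.0% lower. The calls of MEF2C and EYA4 held in only 2 and 1 of 6 fits that left out 1 library. All 3 siGLI1 values of SIX4 and MEF2D lay above all 3 siNT2 values, but neither gene passed the test. Groups did not overlap for 36.2% of all tested genes. EYA2 and MEF2A had overlapping groups. MEF2B and PAX7 had too few reads to be tested.

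Promoter windows of 3 genes are printed because MEF2C and EYA4 were called and because MEF2C and MEF2A hold a match to the site that MEF2 proteins themselves bind. They are RefSeq windows of assembly GRCh38.p14, each 300 bases long and ending shortly after a gene start, 5′ to 3′ on the gene's strand. Capitals mark the MEF2 site in the MEF2C window chr5:88824295-88824594 (minus strand), the MEF2 site in the MEF2A window chr15:99565734-99566033 (plus strand), and the E-boxes in the EYA4 window chr6:133241107-133241406 (plus strand).

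MEF2C: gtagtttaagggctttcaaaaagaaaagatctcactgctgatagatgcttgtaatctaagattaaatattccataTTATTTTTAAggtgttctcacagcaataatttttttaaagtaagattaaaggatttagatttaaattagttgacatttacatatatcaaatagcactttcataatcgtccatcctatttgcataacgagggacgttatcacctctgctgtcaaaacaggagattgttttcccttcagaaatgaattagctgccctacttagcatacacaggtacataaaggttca

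MEF2A: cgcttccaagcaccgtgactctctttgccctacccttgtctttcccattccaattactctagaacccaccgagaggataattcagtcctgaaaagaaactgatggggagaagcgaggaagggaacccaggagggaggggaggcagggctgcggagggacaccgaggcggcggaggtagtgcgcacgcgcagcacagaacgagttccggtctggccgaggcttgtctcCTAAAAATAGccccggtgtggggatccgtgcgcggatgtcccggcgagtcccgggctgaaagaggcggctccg

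EYA4: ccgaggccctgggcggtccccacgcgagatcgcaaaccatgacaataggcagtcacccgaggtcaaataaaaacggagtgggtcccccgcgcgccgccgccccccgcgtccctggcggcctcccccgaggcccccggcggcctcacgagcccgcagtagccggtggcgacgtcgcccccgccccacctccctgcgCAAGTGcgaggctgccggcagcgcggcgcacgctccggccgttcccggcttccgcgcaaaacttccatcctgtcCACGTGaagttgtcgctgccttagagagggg

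The MEF2C match, TTATTTTTAA, lay at bases -175 to -166 counted from the gene start, and the MEF2A match, CTAAAAATAG, at bases -23 to -14. The E-boxes of the EYA4 window were CAAGTG at bases -55 to -50 and CACGTG at bases 20 to 25. In all, 15 windows covered 7 of the 9 members, with 7 windows for MEF2C, 3 for MEF2A, and 1 each for MEF2B, MEF2D, SIX4, EYA4 and PAX7. Both strands were searched for 4 motifs, and no match to 1 of them overlapped a match to another in the members' windows. The MEF2 site occurred in 2 of the 15 windows and in 2.99% of 35116 RefSeq windows of the same length. The E-box CANNTG, bound by MyoD-family factors, occurred in 11 of the 15 windows, from 6 members, and in 68.7% of all windows. The GLI site GACCACCCA, present in 0.236% of all windows, and the MEF3 site TCAGGTT, present in 3.37%, occurred in none of the 15. These matches are letters in a window, not measured binding.

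The knockdown was visible in every library. GLI1 had normalised read counts of 579.9, 905.8 and 1274.1 in the siGLI1 libraries, against 11962.5, 17836.9 and 12774.1 in the siNT2 libraries (log2 fold change -3.996, limma adjusted p = 0.000425). A normalised read count is the number of reads on a gene divided by 1 size factor per library. Differences are given as log2 fold changes of the value + 1, positive where siGLI1 was higher. Unless another test is named, adjusted p-values come from a limma fit over 15622 genes with Benjamini-Hochberg adjustment, and a gene is called when its value is under 0.05. Depth ranged from 13673977 to 18947614 reads per library, and 19355 to 20292 genes had a read. The muscle identity of the cells was present in both groups: MYOD1 lay between 14203 and 22293 in siGLI1 and between 15135 and 21238 in siNT2, while the muscle marker MYF5 had at most 1.08. Of 6 muscle lineage markers, 2 were called higher in siGLI1 and 0 lower. DES, 1 of those called, lay between 7073 and 10478 in siGLI1 and between 3499 and 4697 in siNT2. Since these are bulk libraries, more cells of a kind and more RNA per cell cannot be told apart.

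The EYA coactivators differed most among themselves. EYA1 (Entrez gene 2138, chromosome 8), a coactivator of homeodomain factors in muscle, ear and kidney development, had normalised read counts of 1528.1, 1177.7 and 963.9 in siGLI1 and 580.9, 435.1 and 588.5 in siNT2. The lowest siGLI1 library was well above the highest siNT2 library. The mean was 1223 ± 285 in siGLI1 and 534.8 ± 86.5 in siNT2 (SD, n = 3 each), a ratio of 2.29. EYA1 rose by a log2 fold change of 1.18 (SE 0.21, 95% interval 0.70 to 1.66, limma adjusted p = 0.0108), and edgeR and DESeq2 on whole reads gave adjusted p-values of 0.0101 and 1.02e-05. Leaving out each library in turn kept the call in 5 of 6 fits, and the fit without siGLI1 replicate 2 gave 1.19 with an adjusted p of 0.0604.

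EYA4 (Entrez gene 2070, chromosome 6), an EYA family member known for its role in hearing and heart, had 1791.6, 1575.4 and 1164.4 in siGLI1 and 888.3, 671.4 and 1030.3 in siNT2. The groups did not overlap, but siGLI1 replicate 3 and siNT2 replicate 3 were close. EYA4 rose to 1510 ± 319 in siGLI1, against 863.3 ± 181 in siNT2 (SD, n = 3 each), a log2 fold change of 0.81 (SE 0.22, 95% interval 0.30 to 1.31, limma adjusted p = 0.0457). This call sat just inside the threshold: of the 6 fits that left out 1 library, it held in 1, the fit without siGLI1 replicate 3 (0.98, adjusted p = 0.0168). The long noncoding RNA gene TARID overlaps EYA4 and had mean normalised read counts of 11.6 in siGLI1 and 12.8 in siNT2.

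EYA2 (Entrez gene 2139, chromosome 20), an EYA family member also studied in tumours, did not follow EYA1 and EYA4. Its normalised read counts were 1864.0, 2030.3 and 2292.3 in siGLI1 and 1899.7, 2269.8 and 1963.3 in siNT2. The groups overlapped throughout, with means of 2062 ± 216 in siGLI1 and 2044 ± 198 in siNT2 (SD, n = 3 each). The log2 fold change of 0.01 had a 95% interval of -0.31 to 0.33 (limma adjusted p = 0.963). A change of the size measured for EYA1 lies outside that interval.

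SIX4 (Entrez gene 51804, chromosome 14), a homeodomain factor with a role in muscle formation in mice, had 2330.5, 1824.8 and 1177.3 in siGLI1 and 1059.7, 734.3 and 1019.9 in siNT2. Every siGLI1 library was above every siNT2 library, and the siGLI1 values spread over the widest range of any member. The mean was 1778 ± 578 in siGLI1 and 938.0 ± 177 in siNT2 (SD, n = 3 each), a ratio of 1.90. The log2 fold change of 0.89 (SE 0.27, 95% interval 0.27 to 1.502) had an adjusted p of 0.0624 by limma and 0.0509 by edgeR, neither a call. DESeq2 called it, with an adjusted p of 0.00845, as did limma without siGLI1 replicate 3 (1.15, adjusted p = 0.0107).

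**Figure D1:**
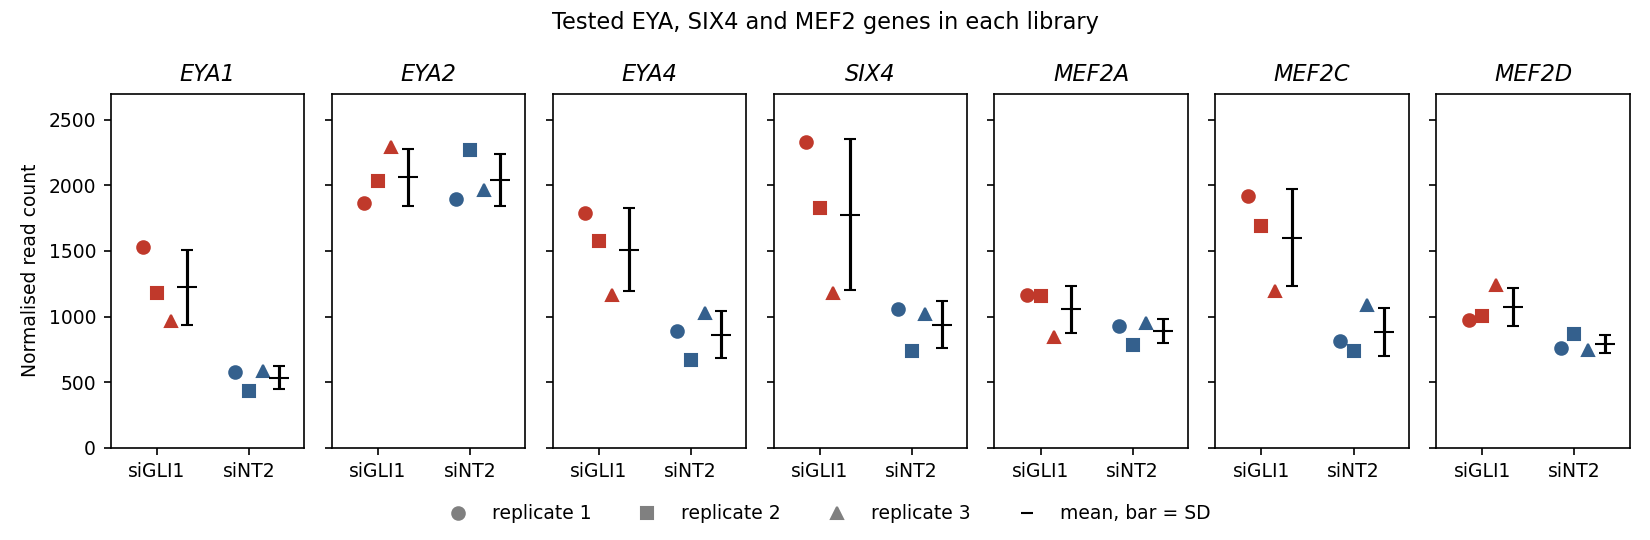
Normalised read count (linear axis from 0) of the 7 tested genes in each siGLI1 library (red, left) and siNT2 library (blue, right). Symbols are replicates, and the bar beside each group is the mean and SD. EYA1, EYA4, SIX4, MEF2C and MEF2D have groups that do not overlap, while EYA2 and MEF2A overlap.

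Among the MEF2 genes, MEF2C (Entrez gene 4208, chromosome 5), the member most tied to sarcomere assembly in skeletal and heart muscle, showed the largest difference. It had 1919.1, 1688.9 and 1195.0 in siGLI1 and 814.8, 739.4 and 1086.1 in siNT2. The groups did not overlap, although siGLI1 replicate 3 was near siNT2 replicate 3. MEF2C rose to 1601.0 ± 370 in siGLI1, against 880.1 ± 182 in siNT2 (SD, n = 3 each), a log2 fold change of 0.85 (SE 0.22, 95% interval 0.34 to 1.37, limma adjusted p = 0.0394). The call held without siGLI1 replicate 3 and without siNT2 replicate 3, and was lost in the other 4 fits that left out 1 library, where the fold change stayed between 0.71 and 0.81.

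MEF2D (Entrez gene 4209, chromosome 1), a widely expressed member with a muscle-specific splice form, had 974.1, 1004.9 and 1238.5 in siGLI1 and 758.8, 869.2 and 743.2 in siNT2. Again no siGLI1 library was as low as any siNT2 library. Its mean was 1073 ± 145 in siGLI1 and 790.4 ± 68.7 in siNT2 (SD, n = 3 each). The log2 fold change was 0.44 (SE 0.15, 95% interval 0.09 to 0.78), and the adjusted p-values of 0.0897 by limma, 0.0831 by edgeR and 0.0513 by DESeq2 did not pass.

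MEF2A (Entrez gene 4205, chromosome 15), a widely expressed member present in proliferating myoblasts, had 1163.1, 1157.3 and 846.4 in siGLI1 and 926.8, 787.0 and 953.7 in siNT2. The third siGLI1 library fell within the siNT2 range, so the groups overlapped. Means of 1056 ± 181 in siGLI1 and 889.2 ± 89.5 in siNT2 (SD, n = 3 each) gave a log2 fold change of 0.24 (95% interval -0.16 to 0.63, limma adjusted p = 0.381). The gene LYSMD4 overlaps MEF2A and averaged 154.2 in siGLI1 and 280.5 in siNT2. Whether reads were counted by strand is not given in the sources used here, so reads shared by overlapping genes cannot be told apart.

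MEF2B (Entrez gene 100271849, chromosome 19), the member best known from B cells, was near the floor. It had 3, 4 and 7 reads in siGLI1 and 7, 8 and 6 reads in siNT2, and its readthrough transcript with BORCS8 had 1, 0 and 0 reads in each group. PAX7 (Entrez gene 5081, chromosome 1) had 0, 0 and 1 read in siGLI1 and 0, 1 and 0 reads in siNT2. In the 4 libraries with 0 reads, up to 3 could have been missed, and 3 reads equal 2.39 to 3.29 normalised units over the 6 libraries. Neither gene reached the mean of 10 required for testing.

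Of the 9 genes, 7 were tested, 3 were called higher (EYA1, MEF2C and EYA4), 0 were called lower and 4 were not called. Over all 15622 tested genes, 15.2% were called, 7.21% higher and 8.0% lower. The count of 0 lower was also 0 at an unadjusted p under 0.05, by edgeR and by DESeq2. edgeR called 3 members higher and DESeq2 called 4. Over the whole table, edgeR called 1182 genes higher and 1200 lower, and DESeq2 1645 higher and 1634 lower. limma called 1127 higher and 1249 lower. The 7 log2 fold changes were all above 0, with a median of 0.81, against -0.01 over all tested genes. The groups did not overlap for 5 of the 7, while 36.2% of all tested genes had groups that did not overlap.

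The number of calls changed when single libraries were left out. It was 1, EYA1, without siGLI1 replicate 1, without siNT2 replicate 1 or without siNT2 replicate 2, and 0 without siGLI1 replicate 2, each against 3 with all 6 libraries. Calls over the whole table fell too. There, 711, 414, 750 and 283 genes were called higher in these fits, in the order given, against 1127 with all 6 libraries. The direction of the 6 members other than EYA2 was higher in siGLI1 in each of these fits. Same-numbered libraries share a code in their labels, and with the replicate number as a term in limma 1 member was called, with MEF2C and EYA4 both at an adjusted p of 0.111.

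The order of the libraries within a group went with the base composition of the genes. EYA1, EYA4, SIX4, MEF2C and MEF2A have a GC content of 39.0% to 43.3% in their annotated transcripts, below the median of 48.7% over tested genes. All 5 were lowest in siGLI1 replicate 3 within siGLI1 and lowest in siNT2 replicate 2 within siNT2. MEF2D and EYA2, with 56.8% and 56.7% GC, did the opposite: both were highest in siGLI1 replicate 3 and in siNT2 replicate 2. Across 14438 genes, the rank correlation of GC content with a library's deviation from its group mean was -0.69, -0.31 and 0.74 in siGLI1 replicates 1 to 3 and -0.49, 0.69 and -0.59 in siNT2 replicates 1 to 3. That of GC content with the log2 fold change was -0.29.

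With each library's trend on GC content removed before limma, 5 members were called higher, against a background of 16.8% of 14438 genes. EYA1 kept the largest change of the 7, 1.09 (limma adjusted p = 0.000281). SIX4 became a call at 0.77 (adjusted p = 0.00559), and so did MEF2D, whose change was larger after the correction, at 0.59 (adjusted p = 0.00155). MEF2C and EYA4 were both lower after correction, at 0.68 and 0.67 (adjusted p = 0.00204 and 0.00169), and remained called. MEF2A and EYA2 were at 0.11 and 0.16 (adjusted p = 0.399 and 0.180), not calls in either analysis. The 95% interval narrowed for all 7, as the plot of fold changes shows.

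**Figure D2:**
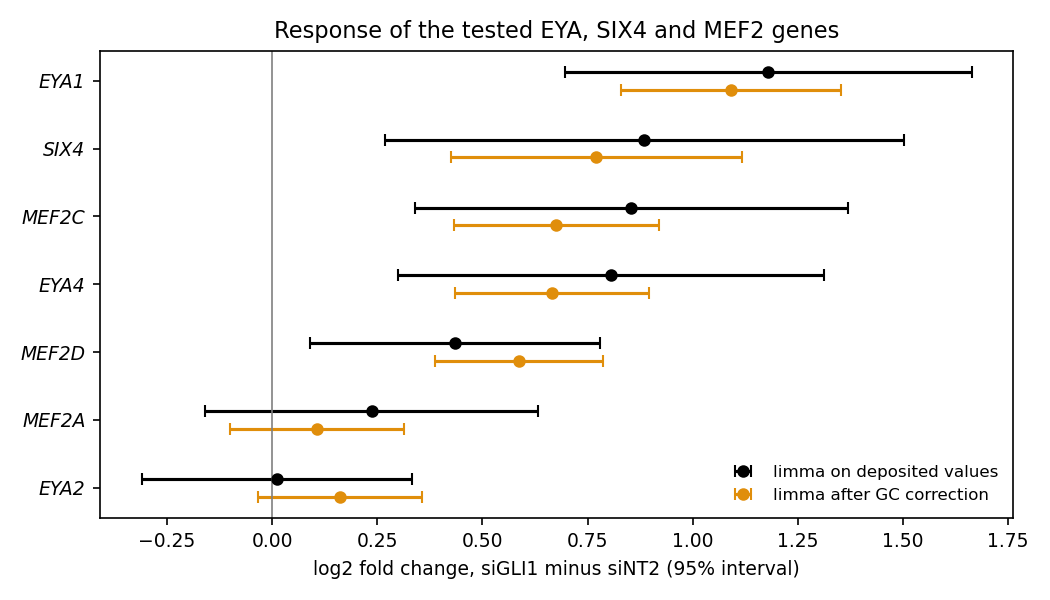
Log2 fold change, siGLI1 minus siNT2, with 95% interval for the 7 tested genes, from limma on the deposited values (black) and after removal of each library's GC trend (orange). Intervals of EYA1, SIX4, MEF2C, EYA4 and MEF2D lie above 0 in both, but the black points of SIX4 (0.89) and MEF2D (0.44) did not pass the adjustment over all genes.

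To compare levels between genes, normalised read counts were divided by the length of the longest annotated transcript, giving a level per kilobase. EYA2 stood highest in both groups, at 763 ± 79.9 in siGLI1 and 757 ± 73.2 in siNT2 (SD, n = 3 each). In siGLI1, the next levels per kilobase were SIX4 at 283, EYA1 at 283, EYA4 at 265, MEF2C at 212, MEF2A at 181 and MEF2D at 180. In siNT2, the next were MEF2A at 153, EYA4 at 151, SIX4 at 149, MEF2D at 133, EYA1 at 124 and MEF2C at 116. Within these 6 genes, the ranges of neighbours in this order overlapped in both groups. Farther apart in siGLI1, all EYA1 levels per kilobase lay above those of MEF2A and MEF2D, and all EYA4 levels above those of MEF2A. MEF2B, at 2.82 per kilobase in siGLI1 and 4.08 in siNT2, and PAX7, at 0.06 in each, lay apart at the bottom.

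EYA1 held a larger share of the EYA pool in each siGLI1 library, where the pool is EYA1, EYA2 and EYA4 without EYA3. It was 26.0%, 20.9% and 17.5% of the summed level per kilobase of the 3 genes in siGLI1, and 13.5%, 9.50% and 13.0% in siNT2. EYA2 was 50.8%, 57.8% and 66.5% in siGLI1 and 70.8%, 79.4% and 69.6% in siNT2, so its share was lower in every siGLI1 library although its own level was similar. The difference in the mean share of EYA1 was 9.46 percentage points, or 6.13 with median transcript lengths. EYA4 averaged 20.1 ± 3.70% in siGLI1 and 14.7 ± 3.21% in siNT2 (SD, n = 3 each), with overlapping groups. The summed EYA level was 1311 ± 42.1 per kilobase in siGLI1 and 1032 ± 34.2 in siNT2 (SD, n = 3 each), without overlap. These shares were not corrected for GC content, which is 43.3% for EYA1 and 56.7% for EYA2. Within siGLI1, EYA1 had its lowest share and EYA2 its highest in replicate 3, and within siNT2 both did so in replicate 2.

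The summed level of the MEF2 genes was higher in every siGLI1 library than in the siNT2 libraries. Per kilobase it was 575.6 ± 54.0 in siGLI1 and 405.7 ± 26.4 in siNT2 (SD, n = 3 each), without overlap. MEF2C made up 36.5 ± 5.27% in siGLI1 and 28.5 ± 3.98% in siNT2, and MEF2D 31.7 ± 7.52% in siGLI1 and 32.9 ± 4.74% in siNT2, both with overlapping groups (SD, n = 3 each). The sign of the MEF2D difference turned without siGLI1 replicate 1, siGLI1 replicate 2 or siNT2 replicate 2. MEF2A made up 32.3%, 33.5% and 28.2% in siGLI1 and 39.9%, 35.2% and 37.7% in siNT2, a lower share in every siGLI1 library. MEF2B was 0.51 ± 0.26% in siGLI1 and 1.02 ± 0.32% in siNT2 (SD, n = 3 each). No test was run on these shares, which are tied to each other because they sum to 100 within a library. They too were not corrected for GC content.

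**Figure D3:**
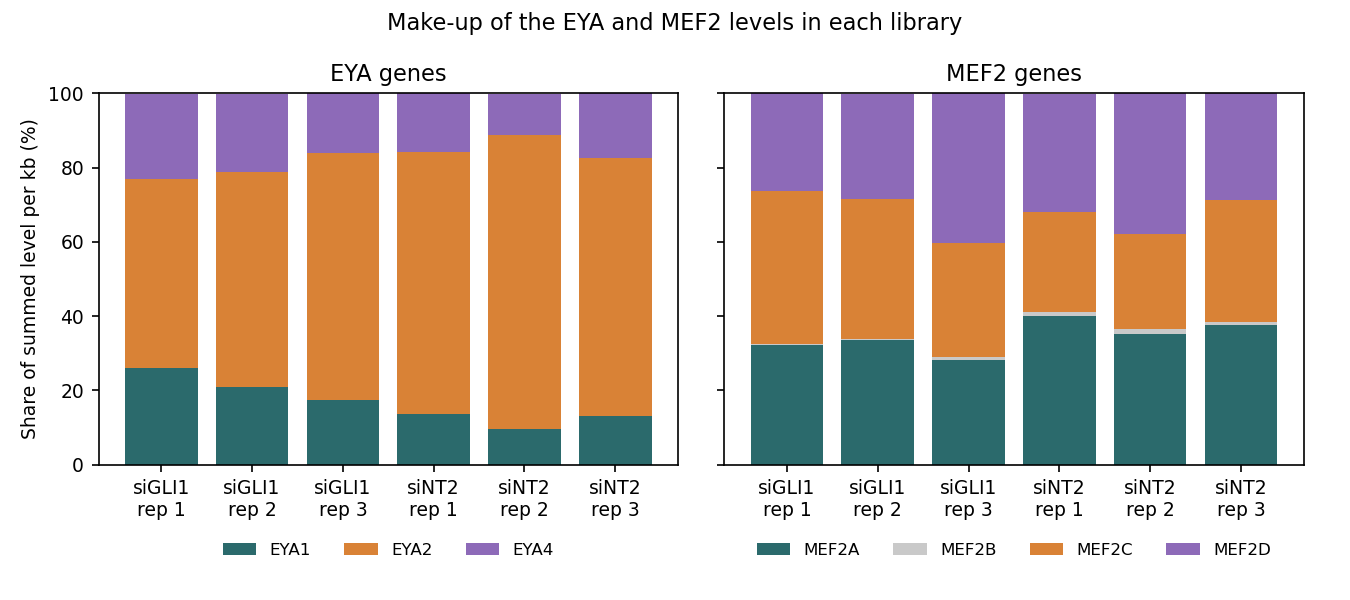
Share (%) of each gene in the summed level per kilobase of the EYA genes (left) and MEF2 genes (right), 1 bar per library, siGLI1 libraries left of siNT2 libraries. EYA1 takes 17.5% to 26.0% in siGLI1 and 9.50% to 13.5% in siNT2.

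The genes whose profiles over the 6 libraries were most like those of the members were found among 12658 genes with a mean of 50 or more, by Pearson correlation of log2 values. The points share the group difference and the GC trend of their libraries, so the correlations only describe these libraries. EYA1 was closest to PKNOX1, ANK2 and ANK3 (r = 0.9995, 0.9991 and 0.9991), and EYA4 to XPOT, NEDD4 and BCL2L13 (r = 0.9993 for each). MEF2C was close to GLRB and ARID5B (r = 0.998 and 0.997). SIX4 was closest to ARHGAP18, DCP2 and ZBTB41 and MEF2A to MFN1, PPP1CB and ZNF654, all at r of 0.996 or more. MEF2D was closest to CIAO2B, SHD and FRG1 (r = 0.997, 0.996 and 0.996) and EYA2 to SF3A2, DCAF15 and VARS1 (r = 0.994 for each). Such high values were common: from 241 genes for EYA2 to 979 for EYA4 had r of 0.95 or more.

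Partner genes of the same network included some that fell. Of 14 other genes of the PAX, EYA and DACH network, 11 were tested, with 2 called higher, 3 lower and 6 not called. The median was -0.04, against -0.01 over all tested genes. The 2 genes called higher are not named here. The lower genes were DACH1, a corepressor that counters EYA coactivators, at -1.01 (limma adjusted p = 0.0180), the somite homeobox gene MEOX1 at -0.90 (adjusted p = 0.00607) and SIX2 at -0.49 (adjusted p = 0.0457). The SIX2 call was kept in 1 of 6 fits that left out a library and ended with GC correction (-0.26, adjusted p = 0.240). PAX3, the paired-box relative of PAX7 in muscle precursors, had 836.4 ± 78.5 in siGLI1 and 844.3 ± 93.0 in siNT2 (SD, n = 3 each). Counts per gene cannot tell reads of PAX3 itself from reads of the PAX3 part of any fusion transcript. EYA3 was at -0.27 (limma adjusted p = 0.294). With GC correction EYA3 was called lower (-0.31, adjusted p = 0.0432).

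Genes known as targets of SIX4, its relatives and EYA factors were split. Of 14 such genes, 13 were tested, 2 were called higher and 2 lower, with a median of 0.24 against -0.01 over all tested genes. The slow troponin gene TNNI1 was at 1.09 (limma adjusted p = 0.00496) and the neurotrophic factor gene GDNF at 0.95 (adjusted p = 0.00374). The membrane linker gene EZR fell by 0.71 and the cell cycle gene CCND1 fell by 0.55 (adjusted p = 0.0131 and 0.0283). MYOG, the MyoD-family gene with a MEF3 and a MEF2 site in its promoter, was at 0.24 (adjusted p = 0.360), and became a call with GC correction, at 0.41 (adjusted p = 0.00655). CCND1 kept its call in 1 of 6 fits that left out a library.

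Muscle genes known as MEF2 targets were called higher more often than lower. Of 22 such genes, 21 were tested, 9 were called higher, 2 lower and 10 not called, and the median was 0.78 against -0.01 over all tested genes. The higher genes were MYOZ2 (2.78), MYL1 (2.61), XIRP2 (2.47), KLHL31 (1.85), MYH7 (1.81), LMOD3 (1.56), HRC (1.47), DES (0.97) and STAC3 (0.79), which encode parts or regulators of the sarcomere, the intermediate filament and the calcium store. Several were low: XIRP2 averaged 33.6 ± 1.97 in siGLI1 and 5.47 ± 2.17 in siNT2 (SD, n = 3 each). The STAC3 call (limma adjusted p = 0.0485) was kept in 2 of 6 fits that left out a library. HSPB7, a small heat shock protein gene of muscle, fell by 3.19, and MB, the gene of myoglobin, fell by 2.39 (limma adjusted p = 0.000596 and 0.000389). The classic target CKM had a log2 fold change of 0.78 with overlapping groups (adjusted p = 0.0980), and was called with GC correction (0.96, adjusted p = 0.00292).

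Genes of MEF2 cofactors, repressors and kinases had a median of -0.21. Of 20, 19 were tested, 2 were called higher and 3 lower. VGLL2, a muscle cofactor of MEF2 and TEAD factors, rose to 930.8 ± 65.3 in siGLI1, against 198.4 ± 8.81 in siNT2 (SD, n = 3 each), a log2 fold change of 2.22 (limma adjusted p = 0.000277). SIK1, a kinase that phosphorylates class II histone deacetylases, was called at 0.72 (adjusted p = 0.0139). MAPK7, a kinase that activates MEF2 factors, fell by 0.95 (adjusted p = 0.00560), HIPK2, a homeodomain-interacting kinase gene, fell by 0.99 (adjusted p = 0.0144), and the arginine methyltransferase gene CARM1 fell by 1.07 (adjusted p = 0.0280, kept in 1 of 6 fits that left out a library). The class II deacetylase gene HDAC9, a repressor of MEF2, was at 1.43 with an adjusted p of 0.0671, or 1.27 with 0.0139 after GC correction. HDAC9 was low, with means of 60.1 in siGLI1 and 21.2 in siNT2. Of the other listed deacetylase genes, HDAC5 had means of 1697 in siGLI1 and 2585 in siNT2. It was at -0.61 with an adjusted p of 0.0681, or -0.40 with 0.00880 after GC correction. HDAC4 was at -0.28 with 0.190, and HDAC7 at -0.10 with 0.801. Calls in this, the EYA target and the PAX network list fell to 2 each without siGLI1 replicate 2 or without siNT2 replicate 1. Over the whole table, 283 genes were called higher and 358 lower without siGLI1 replicate 2. Without siNT2 replicate 1 they were 414 and 449, against 1127 and 1249 with all 6 libraries. The PAX network list had 3 without siGLI1 replicate 1, siNT2 replicate 2 or siNT2 replicate 3, and the MEF2 cofactor list had 3 without siNT2 replicate 3. With GC correction 8 genes each were called in the MEF2 cofactor and EYA target lists.

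Genes associated with satellite cells and PAX7 went both ways while PAX7 itself was at the floor. Of 17 listed genes, 16 were in the table and 14 were tested, with 4 called higher, 4 lower and a median of 0.34. CXCR4, MEGF10, NCAM1 and MYMK, genes of migration, adhesion and fusion, were at 1.24, 1.57, 1.11 and 1.57. SDC4, HEYL, SDC3 and FGFR1, genes of heparan sulfate coreceptors, Notch output and growth factor reception, fell by 2.26, 1.93, 1.89 and 1.22. MYF5 and VCAM1 had values of at most 2.16 in siGLI1 and 0 in siNT2.

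**Figure D4:**
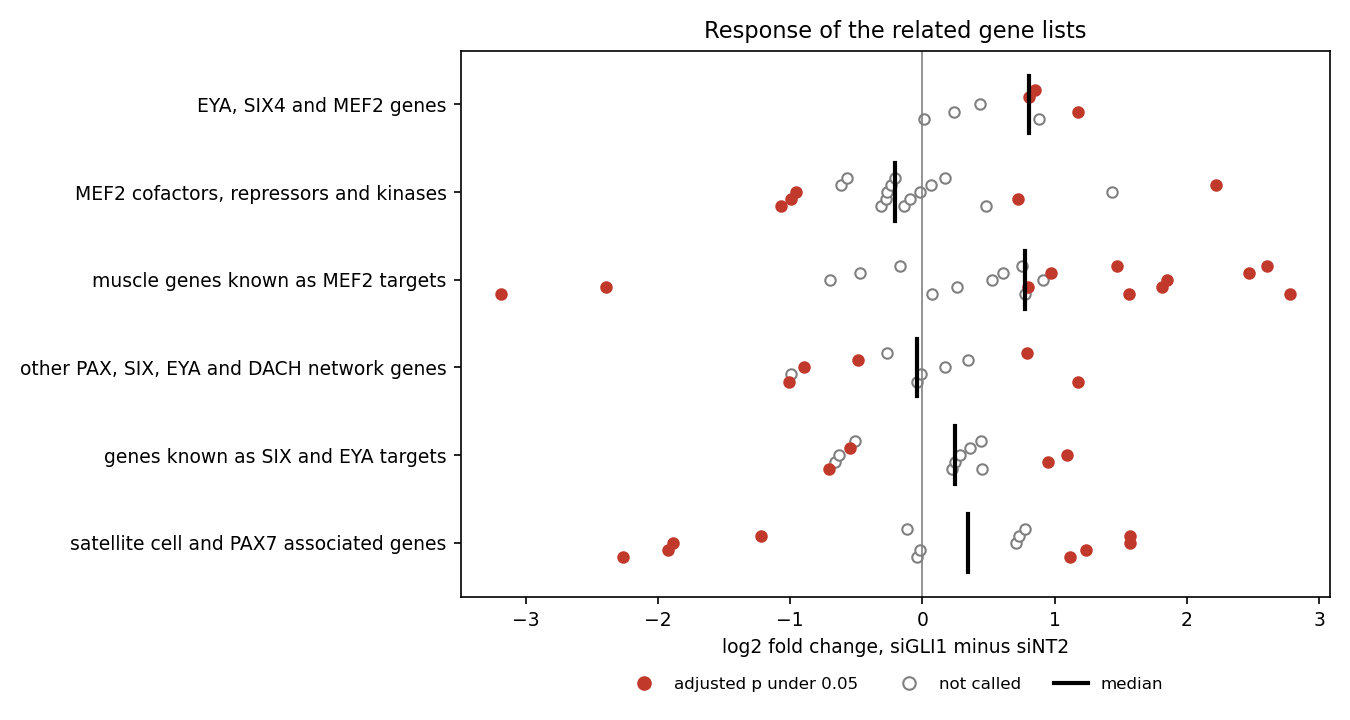
Log2 fold change, siGLI1 minus siNT2, of each tested gene in the 7 tested members and the 5 related lists. Filled points are called by limma (adjusted p under 0.05), open points are not, and black bars are medians. The medians of the members (0.81) and of the MEF2 target list (0.78) lie highest.

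Markers of other cell types were read at low to moderate levels, and 2 of them, PECAM1 and SYT1, were called higher in siGLI1. The summed normalised read count of 6 epithelial markers was 94.0 to 103 in siGLI1 and 125 to 155 in siNT2, and that of 6 blood markers was 23.8 to 50.4 in siGLI1 and 16.2 to 19.8 in siNT2. Endothelial markers summed to 140 to 165 in siGLI1 and 68.0 to 123 in siNT2, with 1 of 5 called, PECAM1, at 81.8 to 90.9 in siGLI1 and 5.58 to 14.2 in siNT2. The 6 neural markers summed to 366 to 596 in siGLI1 and 264 to 432 in siNT2, with SYT1 called higher, RBFOX3 at 171 to 447 in siGLI1 and 187 to 353 in siNT2, and SNAP25, ELAVL4 and STMN2 at 0 reads. Their part in the values of the MEF2, SIX4 and EYA genes was not tested.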

How the data were processed

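The data are RNA sequencing of RMS13 cells, with 3 siGLI1 and 3 siNT2 libraries. Per the submitters' processing notes, the genome build was hg19 and the tools were DESeq2 2.11.40.6, Subread 1.6.4 with featureCounts, Bowtie2 2.3.3.1, Trim Galore 0.4.5 and bcl2fastq. Not given in the sources used here are the annotation, the strand setting and the handling of reads that match several places. Reads over exon junctions can be lost, because Bowtie2 aligns without splitting.

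The authors deposited 1 table of signal values, which are read counts per gene divided by a size factor per library. In each library 100% of the values were whole multiples of 1 read within 0.01 reads, so whole reads were recovered; they totalled 13784642, 14312681 and 15477041 in siGLI1 and 13673977, 15498340 and 18947614 in siNT2. Floors and read numbers cover counting error only. No 2 libraries of a group agreed within sampling noise.

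Gene symbols were taken from RefSeq annotation of GRCh38.p14, matching 23696 of 25702 Entrez numbers (92.2%). GC content and length came from GENCODE transcripts. limma 3.58.1 (lmFit, eBayes with trend) was run in R 4.3.3 on log2(deposited value + 1) with group as the only term, for genes with a mean of 10 or more; fold changes of low genes are understated on this scale. edgeR 4.0.16 (quasi-likelihood) and DESeq2 1.42.0 on the recovered reads were alternatives, with other pseudocounts, filters, scaling, GC correction, library weights and each library left out. GC correction subtracted a lowess trend of each library's deviation on gene GC content. Tables and figures were made in Python 3.11.15. On the whole reads, edgeR called 1182 genes higher and 1200 lower, against 1127 and 1249 by limma. The fits were also run on simulated counts with known changes. Those counts had no GC trend, unlike these libraries, so they do not show how the fits perform here.

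The members and gene lists were chosen with earlier results of these data known. Named genes were all members, GLI1, up to 6 genes per list with the smallest p-values plus those needed to name small counts, and the 3 genes with the most similar profile to each member. CKM, KLHL31, HRC, STAC3, DES, MYH7, MYOG, EYA3, PAX3, HDAC4, HDAC5, HDAC7, MYF5, VCAM1 and the overlapping genes LYSMD4 and TARID were named outside that rule, after their values were seen. Some genes that the rule takes are not reported here.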

Additional observations from a re-analysis of the deposited data

How the results depend on the processing

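Over the settings other than leaving out a library, each tested member kept its direction. edgeR, pseudocounts of 0.5 and 8, no filter on low values and TMM scaling changed no call of a member. DESeq2 called SIX4 (0.93) and 8 genes of the MEF2 cofactor list. A filter at a mean of 50 left 6 called MEF2 targets, since fewer genes were tested.

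With GC correction, MEF2D (0.59) and SIX4 (0.77) were called, 5 members were called higher, 8 genes each were called in the MEF2 cofactor and the EYA target lists, and 2426 genes were called higher and 2337 lower over the table. GC correction with the replicate block gave 0.59 for MEF2D, 0.77 for SIX4, 5 members, 8 MEF2 cofactor genes and 1903 genes higher.

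Same-numbered libraries share a code in their labels, whose meaning the labels do not give, and did not deviate together in every pair (r = 0.49, -0.11 and -0.61), so whether the numbers pair the samples is not settled. The replicate block left fold changes as they were, with MEF2C at 0.85 and EYA4 at 0.81 no longer called (adjusted p = 0.111 for each), 1 member called higher, 2 genes called in each of the MEF2 cofactor, PAX network and EYA target lists, and 462 genes higher and 508 lower over the table. Not every library correlated best with its own number.

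limma's library weights did not reach their convergence tolerance and called 6209 genes higher and 6410 lower, so they are given as values alone: MEF2A 0.31, MEF2D 0.41, SIX4 0.79 and EYA2 0.094, 7 members, and 17, 19, 9 and 13 genes of the MEF2 cofactor, MEF2 target, PAX network and EYA target lists.

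Leaving out each library in turn gave log2 fold changes of 1.01 to 1.34 for EYA1, -0.067 to 0.089 for EYA2 (below 0 in 3 fits, at -0.067 without siGLI1 replicate 3, -0.039 without siNT2 replicate 1 and -0.015 without siNT2 replicate 3), 0.64 to 0.98 for EYA4, 0.66 to 1.15 for SIX4, 0.15 to 0.39 for MEF2A, 0.71 to 1.05 for MEF2C and 0.33 to 0.51 for MEF2D. It gave 0 to 4 members called higher and 2 to 7, 8 to 12, 2 to 6, 2 to 5 and 6 to 9 genes called in the MEF2 cofactor, MEF2 target, PAX network, EYA target and satellite cell lists. Over the table it gave 283 to 1562 genes higher and 358 to 1705 lower; a fit that leaves 2 libraries in a group has fewer samples. The cause of these differences was not tested. The MEF2D share difference of -1.15 percentage points turned to 1.51, 0.50 and 1.42 without siGLI1 replicate 1, siGLI1 replicate 2 and siNT2 replicate 2, and that of EYA1 was 9.46, or 6.13 with median transcript lengths. The share of MEF2B differed by -0.51 percentage points between the groups, -0.12 with median transcript lengths and -0.14 without division by length.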
